A study of Homo sapiens with 34 samples.

Results

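Heat shock proteins and their cochaperones were followed through the 3 m6Am peak lists deposited for HEK293T cells, a human embryonic kidney cell line. A line was taken where its gene name carried a family prefix (HSP, DNAJA, DNAJB, DNAJC, CCT, BAG, FKBP, PPIA to PPIH, PDIA or HSF) or was TCP1, STIP1, CHORDC1, AHSA1 or PTGES3. By this naming rule 25 of the 2116 lines were taken, and they name 21 of the 1807 distinct genes in the lists. Of them, 17 of 1652 lines are in the HEK293T list, 2 of 74 in the heat shock list and 6 of 390 in the hypoxia list. The members are mostly J-domain proteins and prolyl isomerases, and no HSP70 or HSP90 gene is named in any list.

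Molecular chaperones bind unfolded proteins and keep them from aggregating. HSP70 proteins do so in cycles of ATP hydrolysis that J-domain proteins (the DNAJ families) start and BAG proteins end. HSP90 acts later on a narrower set of clients, helped by cochaperones such as AHSA1 and PTGES3. FKBP proteins and cyclophilins turn proline bonds, and PDIA enzymes form disulfide bonds in the endoplasmic reticulum. Under heat, heat shock factor binds inverted repeats of GAA, the heat shock elements, in the promoters of inducible chaperones. m6Am is a methylated 2′-O-methyladenosine next to the m7G cap, so a transcript can carry it only where its first transcribed base is A. PCIF1 is the methyltransferase that writes it.

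m6Am-seq enriches capped fragments with an antibody to m7G, demethylates part of them with FTO and enriches both parts with an antibody to m6A. A peak was called m6Am by the authors where the FTO (-) signal was over 2-fold the FTO (+) signal. The labels hold 34 libraries in 21 groups, with 2 or 1 libraries in each. They come from wild-type HEK293T cells, PCIF1-KO cells, heat shock cells (43 °C for 2 h, then 6 h of recovery), hypoxia cells (1% oxygen for 24 h) and untreated cells, all grown at 37 °C, and all but the PCIF1-KO cells are wild type as far as the labels say. No deposited list analysed here was made for the PCIF1-KO cells. Each list gives the outer span of a peak with its introns, and a gene name. Both stress lists add a ratio of stressed over untreated cells. No line carries a read count, a strand, a score or a replicate value, so the depth behind a peak and the error between replicates are unknown, and no difference between conditions could be tested. A gene missing from a list was not called there, which does not show that its transcript lacks m6Am. The stress lists hold peaks that the authors called as changed between stressed and untreated cells. A gene missing from a stress list may therefore have an m6Am peak under that stress that was not called as changed. The lists hold no expression levels, so the identity of the cells could not be checked against markers.

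The starts of transcription that the results turn on are shown first. Each line is 30 bases of GRCh37 on the strand of the gene, 5′ to 3′, and the capital marks the annotated transcription start site (TSS) nearest the 5′ end of the listed span, except for HSPE1 and HSP90B1, where it marks the canonical TSS. In the first 4 the capital is an A, the base that can carry m6Am, and in the next 4 it is a G. The last pair are genes that no list names although a listed span holds their TSS.
DNAJC12, chr10:69597932-69597961, minus strand: cagccaatgagaggcAgagtttacaaaggt
FKBP5, chr6:35696346-35696375, minus strand: ctccaccactaccccAgaacaaactcctac
BAG2, chr6:57037109-57037138, plus strand: ctgggtccggggagcAgacgatccgctagc
AHSA1, chr14:77924360-77924389, plus strand: gtggggaggagccggAagttaaggagggga
DNAJB1, chr19:14629205-14629234, minus strand: atagagtccgggactGgtcggcggcggagc
HSPB1, chr7:75931975-75932004, plus strand: cgagcccagcgccccGcacttttctgagca
BAG3, chr10:121410877-121410906, plus strand: tcagggcggagctccGcatccaaccccggg
HSPD1, chr2:198364984-198365013, minus strand: ggagggagggcggtcGccccgacgcgcacc
HSPE1, chr2:198365088-198365117, plus strand: cgccagggccggactGcgagtctctttgcg
HSP90B1, chr12:104324173-104324202, plus strand: acctgcttgcggtgtAgtgggcggaccgcg

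In unstressed HEK293T cells, the m6Am peak list names J-domain, FKBP, BAG and PDIA genes, and it names no HSP70, HSP90 or cytosolic chaperonin gene, although 1 span with another name covers the start of HSP90B1. Gencode 44 has 131 protein-coding genes that fit the naming rule. After 6 were set apart, 3 of them readthrough genes and 3 (HSPG2, HSPBAP1 and HSF2BP) no chaperones, 125 were counted. The HEK293T list names 17 of the 125 (13.6%, 95% Wilson interval 8.67 to 20.7%, which covers counting error only). Over all 20149 protein-coding names it names 7.14%. Neither share was limited to genes expressed in HEK293T cells, since the lists hold no levels, and the part that expression has in the difference was not tested.

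The DNAJC family gave the most members. These J-domain proteins recruit HSP70 to particular sites, and 5 of 28 are in the HEK293T list. DNAJC8, a nuclear J-domain protein found with splicing factors, has a span of 4047 bp (chr1:28555496-28559542). DNAJC21, which acts in ribosome assembly, has 4263 bp (chr5:34929664-34933926). DNAJC12, a cochaperone of the aromatic amino acid hydroxylases, has 14808 bp (chr10:69583130-69597937) and begins 9 bp inside its TSS. DNAJC24, a partner in diphthamide synthesis, has 44995 bp (chr11:31391377-31436371). DNAJC30, a mitochondrial protein whose gene has a single annotated TSS, has the short span of 239 bp (chr7:73097543-73097781), which starts 2 bp past it.

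Of the DNAJB family, 2 of 12 are in the HEK293T list. DNAJB1 is the main cytosolic HSP40 and a classical heat shock gene, and its span covers 1717 bp (chr19:14627655-14629371). DNAJB6, which holds back aggregation of polyglutamine proteins, has 21611 bp (chr7:157129698-157151308). None of the 4 DNAJA genes is listed.

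The nucleotide exchange factors and the prolyl isomerases contributed 2 of 6 BAG genes and 4 of 16 FKBP genes. BAG2, an inhibitor of the ubiquitin ligase CHIP, has the shortest member span, 179 bp (chr6:57037104-57037282). BAG3, a heat-inducible factor in selective autophagy, has 329 bp (chr10:121410882-121411210). FKBP5, an HSP90 cochaperone that is induced by glucocorticoids, has the longest member span, 85832 bp (chr6:35610529-35696360), of which 600 bp are exonic. FKBP1B, which binds calcium release channels, has 11172 bp (chr2:24272571-24283742), and the nuclear FKBP3 has 3818 bp (chr14:45599915-45603732). FKBP7, of the endoplasmic reticulum, has 270 bp (chr2:179343086-179343355). None of the 8 cyclophilin genes PPIA to PPIH is listed.

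Of the folding enzymes and the remaining cochaperones, PDIA3 has 211 bp (chr15:44038590-44038800) and PDIA5 has 22201 bp (chr3:122785856-122808056), which makes 2 of 5 PDIA genes. PTGES3, the p23 cochaperone of HSP90, has 387 bp (chr12:57081806-57082192). HSPD1, the mitochondrial chaperonin HSP60, has 934 bp (chr2:198364990-198365923). Besides DNAJA and the cyclophilins, further families have no member in the HEK293T list. They are HSP70 and HSP110 (0 of 15), HSP90 (0 of 3) and the small heat shock proteins (0 of 7). The CCT chaperonin (0 of 10) and the heat shock factors (0 of 4) have none either. Beside these small families stand 7.14% of all protein-coding names, and the difference was not tested. In all 3 lists together, 104 of the 125 genes are not named.

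**Figure D1:**
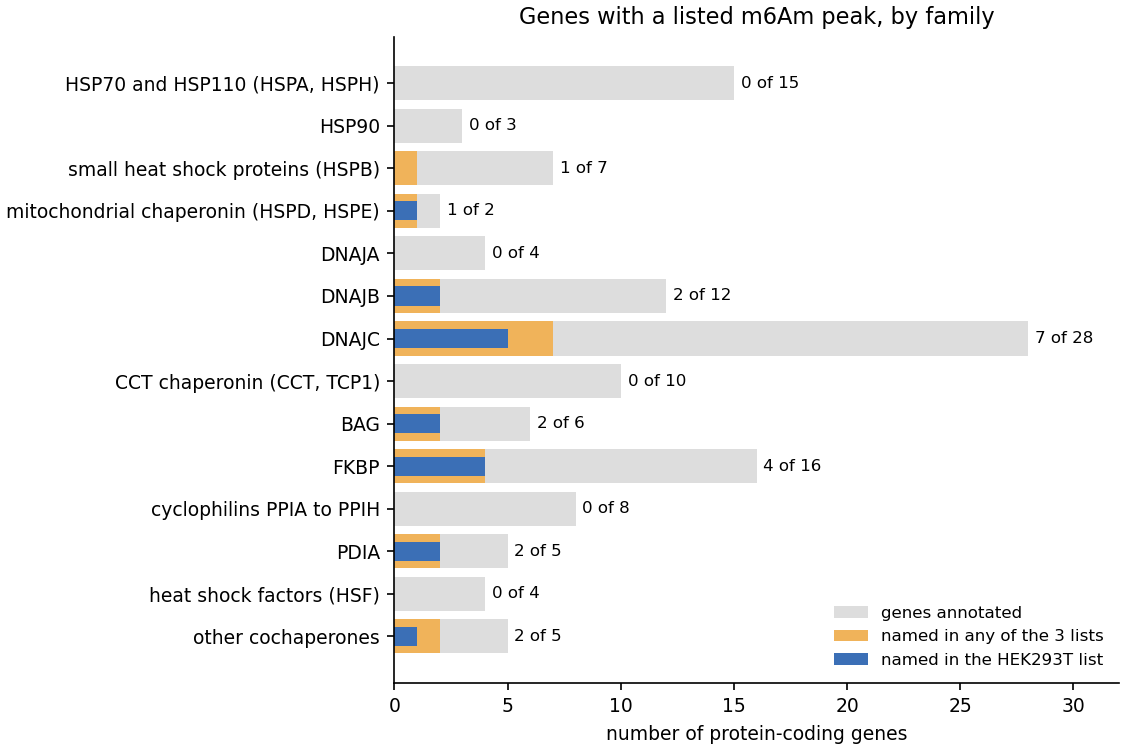
Number of protein-coding genes per chaperone family (grey bars), of those named in any of the 3 lists (orange) and of those named in the HEK293T list (blue); the label gives named genes of annotated genes. DNAJC has 7 of 28 genes named, FKBP 4 of 16, and the HSP70 and HSP110 family 0 of 15.

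By compartment, 3 of 25 chaperones and folding enzymes of the endoplasmic reticulum are in the HEK293T list (12%: PDIA3, PDIA5 and FKBP7). HSPA5, HSP90B1, DNAJB9, DNAJC3 and PDIA4, which the unfolded protein response is known to induce, are not named. Of 11 mitochondrial chaperones, 2 are named (18.2%: HSPD1 and DNAJC30). Beside these stand 13.6% of all chaperones counted and 7.14% of all protein-coding names. None of these 25 genes of the endoplasmic reticulum is in a stress list, but DNAJC14, a J-domain protein of its membrane that the list of 25 does not hold, is in the hypoxia list. The mitochondrial list has HSPD1 in the heat shock list.

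The member peaks sit at 5′ ends, as do the other peaks of the list, which were called on cap-enriched RNA. Their spans include an annotated TSS of the named gene in 16 of 17 members (94.1%), against 92.7% of the spans of the list with an annotated gene. The exception is DNAJC30, whose TSS lies 2 bp outside. The 5′ end of the span lies a median of 9 bp from the nearest TSS in the members and 17 bp over the list. It lies within 100 bp of one in 15 of 17 members (88.2%) and in 80.6% of the list. The members beyond that distance are DNAJB1 at 152 bp and HSPD1 at 925 bp. Both are heat-inducible genes, but so is BAG3, at 10 bp. The distance of HSPD1 is read on its own strand, while all 934 bp of its span are exon of HSPE1 on the other strand.

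The annotated base at that TSS was A in 6 of 17 members (35.3%), against 44.8% of the list. These 6 are DNAJC8, DNAJC12, PDIA5, DNAJC21, FKBP5 and BAG2, and each A is preceded by C (CCA or GCA on the strand of the gene). Nearest sites that read CCA, GCA or TCA were thus 35.3% in the members and 27.6% over the list, where they were 426 of the 693 sites with an A. Many genes have several annotated sites in their span, and at least 1 of them is an A in 12 of 17 members (70.6%) and in 75.2% of the list. In the other 5, BAG3, PTGES3, DNAJB1, HSPD1 and DNAJC30, no annotated TSS of the named gene within the span is an A. PTGES3 has 5 sites in its span and DNAJB1 has 5, none of them an A. An annotated TSS is a reference position and not the first base read in these cells. The start used in these cells was not analysed here.

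Long spans are mostly intron. Member spans had a median length of 3818 bp (179 to 85832 bp), and the list had a median of 1228.5 bp (60 to 550637 bp). The exonic part had a median of 409 bp in members and 346 bp over the list. Spans of at most 1000 bp were 7 of 17 members (41.2%) and 47.3% of the list. A single exon block held the exonic part in 7 of 17 members (41.2%) and in 45.8% of the list, and 14 member spans (82.4%) reached into coding sequence, against 62.5% of the list.

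**Figure D2:**
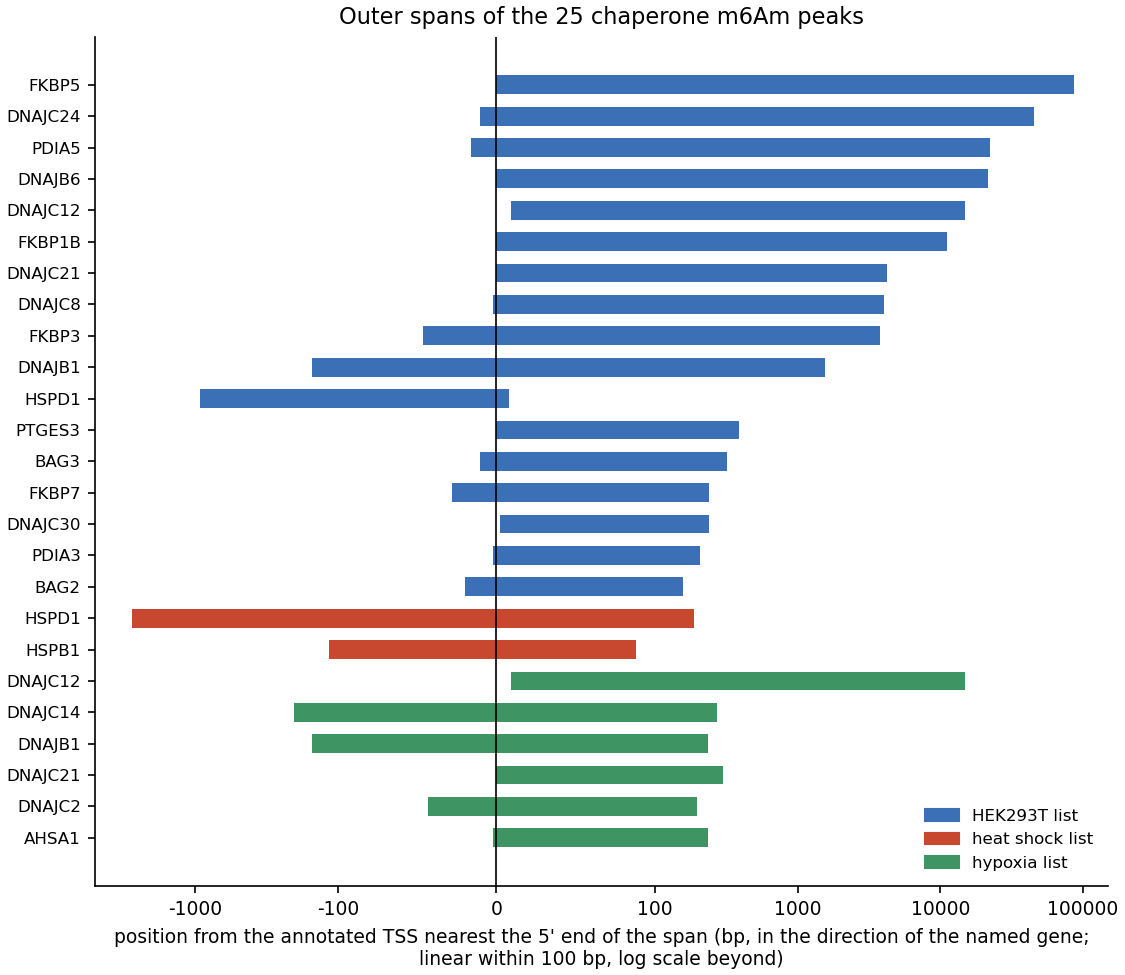
Outer spans of the 25 member lines by distance in bp from the annotated TSS nearest their 5′ end, in the direction of the named gene (linear within 100 bp, log scale beyond), coloured by list and ordered by length within a list. Most spans begin at or near the TSS line, and both HSPD1 spans lie mostly upstream of it.

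After heat shock, 2 chaperone genes were named in the m6Am list, HSPB1 and HSPD1, and both lines were higher than in untreated cells. HSPB1 (HSP27) is a small heat shock protein that holds unfolded clients, and its deposited ratio of 4.38 is the highest of the 39 higher lines of the list, which range from 1.53 to 4.38 with a median of 2.21. HSPB1 has no line in the HEK293T list. HSPD1 has a ratio of 2.15, below that median and rank 29 of 39. In the authors' deposited table each is 1 value without error. Whether it was corrected for transcript level is not given in the sources used here, so more m6Am per transcript and more transcript cannot be told apart. The paper reports unaltered mRNA levels for most genes with stress-regulated marks, and its text gives no level for HSPB1 or HSPD1. These 2 of 125 genes (1.60%, Wilson interval 0.440 to 5.65%) stand beside 0.179% of all protein-coding names in the higher lines. Among the lower lines are 0 of 125 members, beside 0.139% of all names.

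Most inducible chaperones are absent from the heat shock m6Am list, as are most protein-coding genes. Of 23 chaperones listed as heat-inducible, 21 of which fit the naming rule, 21 have no line. The 2 with a line (8.7%) are both higher, beside 0.179% of all protein-coding names in the higher lines. The absent HSP70 and HSP110 genes are HSPA1A and HSPA1B, the main inducible HSP70 genes, with HSPA1L, HSPA4L, HSPA6, HSPA8 and HSPH1. HSP90AA1 and HSP90AB1, the cytosolic HSP90 genes, are absent too. HSPA1A and HSPA1B are near-identical copies, so which of them a read came from is uncertain, and the part of this in their absence was not tested. The paper reports raised m6A in the 5′-UTR of HSPA1A, HSPA1B and DNAJB1 after heat shock. That mark is called where FTO does not lower the signal, and the m6Am lists do not hold it. Its part in these absences was not tested either. Also absent are the small heat shock proteins CRYAB and HSPB8 and the J-domain genes DNAJA1, DNAJB1 and DNAJB4. The mitochondrial cochaperonin HSPE1 is not named, although the heat shock spans named HSPD1 and MOB4 each hold all 6 of its annotated TSSs. The cochaperones BAG3, CHORDC1, AHSA1, STIP1 and FKBP4 and the collagen chaperone SERPINH1 are not named either. BAG3 and DNAJB1 have a line in the HEK293T list, so that they were called in unstressed cells and are not among the deposited heat shock lines. The other 19 have no line in the HEK293T list either. The supplementary heat shock list of the study names further genes, some inducible chaperones among them, and was not analysed here. The absences above therefore hold for the deposited list of changed peaks alone. They do not show that a gene had no m6Am peak after heat shock.

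HSPB1 lies on the plus strand of chromosome 7 from 75931990 to 75933612. Its heat shock span is 204 bp long (chr7:75931875-75932078) and begins 115 bp upstream of the nearest annotated TSS. Of the span, 89 bp are exonic, all in 1 exon block, and 49 bp are coding. It holds 3 annotated TSSs, none of which is an A.

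HSPD1 and HSPE1, the partners of the mitochondrial chaperonin, are transcribed in opposite directions from a shared promoter. The HSPD1 TSS marked earlier lies 75 bp from the nearest annotated HSPE1 TSS, and other annotated sites of the pair lie closer together. Both spans named HSPD1 lie over HSPE1. All 934 bp of the HEK293T span are HSPE1 exon and 9 bp are HSPD1 exon. Of the 2971 bp of the heat shock span (chr2:198364810-198367780), 1430 bp are HSPE1 exon and 189 bp are HSPD1 exon. HSPE1 is named in no list. A second heat shock span starts 1 bp away, shares 2970 bp and is named MOB4, a gene further along on the strand of HSPE1, with a ratio of 2.08 beside 2.15 for HSPD1. The MOB4 span reaches over 23558 bp and holds all 6 annotated TSSs of HSPE1, and the HEK293T span named HSPD1 holds 5 of them. None of these sites is an A. An annotated readthrough gene, HSPE1-MOB4, starts within all of these spans on the strand of HSPE1. It has 153 bp of exon in the HEK293T span and 192 bp in the heat shock span named HSPD1. The MOB4 span ends within an exon of HSPE1-MOB4. The lists give no strand, so reads from HSPD1, HSPE1 and HSPE1-MOB4 cannot be told apart here. The 2 heat shock lines overlap and are not independent.

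**Figure D3:**
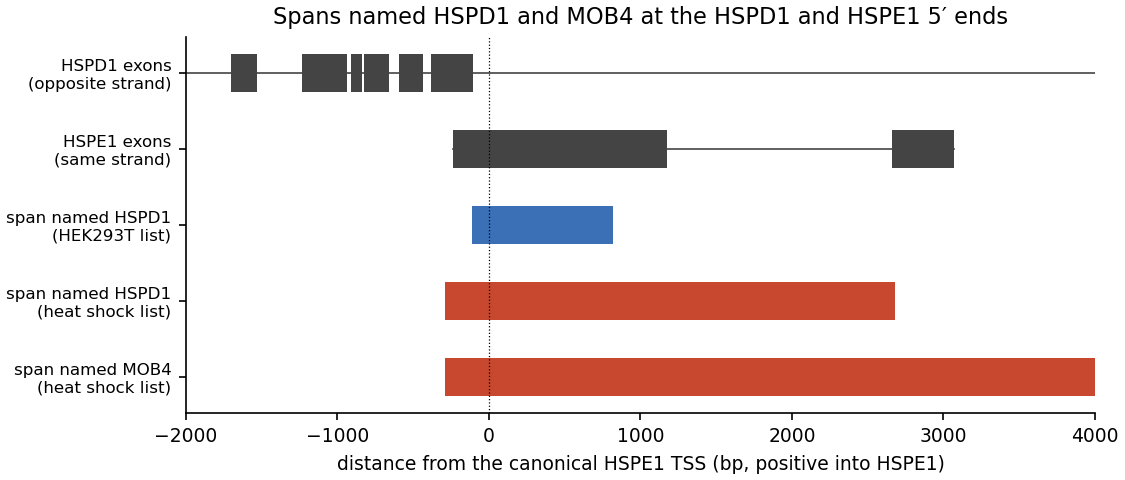
Exons of HSPD1 and HSPE1 (grey) and the spans named HSPD1 and MOB4 (blue, HEK293T list; red, heat shock list), by distance in bp from the canonical TSS of HSPE1. All 934 bp of the HEK293T span lie over HSPE1 exon, and the MOB4 span, which runs past the right edge, starts 1 bp from the heat shock span named HSPD1.

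Under hypoxia, 5 cochaperone genes had higher m6Am lines and 1, DNAJB1, had a lower one. The higher ones are 4 DNAJC genes and AHSA1. They make 5 of 125 genes (4%, Wilson interval 1.72 to 9.02%), beside 1.62% of all protein-coding names, and the lower one makes 1 of 125 (0.8%, interval 0.141 to 4.39%), beside 0.124%. No HSP70, HSP90, CCT, BAG, FKBP or PDIA gene is in the hypoxia list. Heat shock and hypoxia were set against the same untreated libraries. The limit on transcript level given for the heat shock ratios holds for the hypoxia ratios too.

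The 5 higher ratios lie close together, and near the 2-fold limit. AHSA1, which activates the ATPase of HSP90, has 2.43 (chr14:77924373-77924611), rank 99 of the 359 higher lines. DNAJC14, a J-domain protein of the endoplasmic reticulum membrane, has 2.36 (chr12:56224334-56224812). DNAJC21 has 2.25 and DNAJC12 has 2.22. DNAJC2, a ribosome-bound J-domain protein that acts on nascent chains, has 2.02 (chr7:102985080-102985320), rank 347 of 359. The median over the higher lines of the list is 2.31, with a range from 1.80 to 16.7, so 2 members lie above the median and 3 below it. No higher member reaches a ratio of 3, which 43 of the 359 lines do.

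DNAJB1 is the one chaperone that was lower under hypoxia. Its deposited ratio is 0.235, which is 4.25-fold lower than in untreated cells, and it ranks 15 of 31 lower lines, whose median is 0.25 with a range from 0.0597 to 0.955. Of the 31 lower lines, 20 are at most 1/3 of untreated, and DNAJB1 is among them. TMPO, SLC25A5, TROVE2 and ZIC2 each stand there on 2 lines with the same span and ratio. With these counted once, a count chosen after seeing the data, DNAJB1 ranks 11 of 27 lower lines with a median of 0.27, and 16 are at most 1/3 of untreated. The gene lies on the minus strand of chromosome 19 from 14625581 to 14671203 and has 23 annotated TSSs. Its hypoxia span covers 387 bp (chr19:14628985-14629371) and has the same 5′ end as its HEK293T span, and the 3′ end is 1330 bp shorter. Both spans begin 152 bp upstream of the nearest TSS. Within the hypoxia span 235 bp are exonic and 177 bp coding, and neither of its 2 annotated TSSs is an A. A further 4 annotated DNAJB1 sites, all of them an A, lie far upstream within the HEK293T span of TECR (chr19:14640355-14674031), a gene on the opposite strand. DNAJB1 has no line in the heat shock list.

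**Figure D4:**
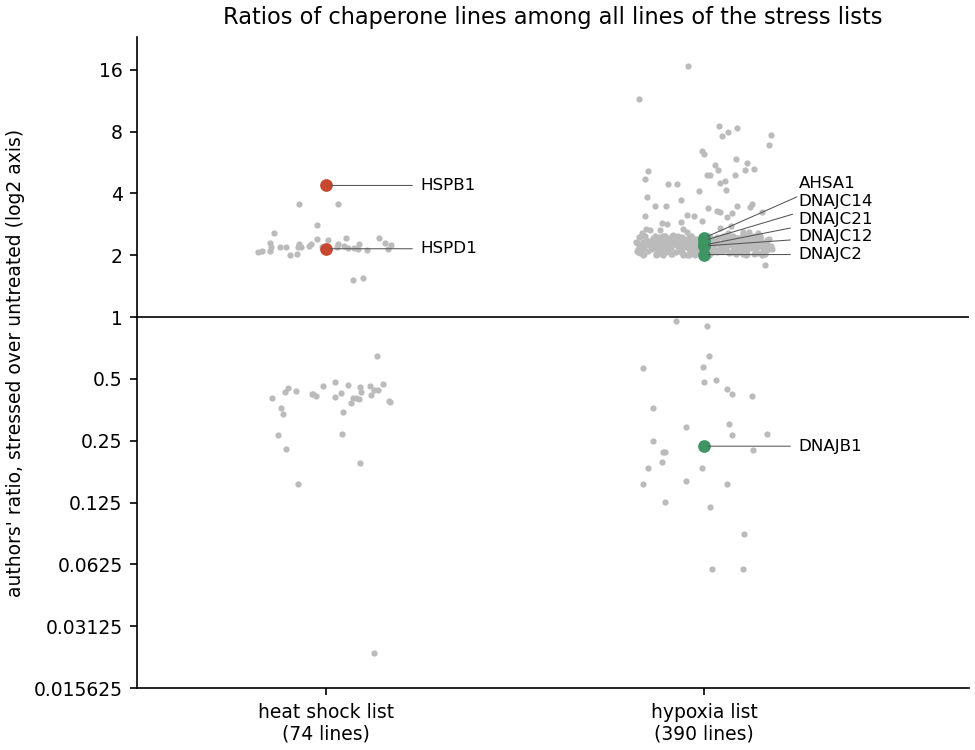
Authors' ratio of stressed over untreated cells on a log2 axis for all 74 lines of the heat shock list and all 390 lines of the hypoxia list (grey), with chaperone lines in colour; 1 point is 1 line, without error, and points are spread sideways at random. HSPB1 at 4.38 is the highest heat shock line, the 5 higher hypoxia members lie between 2.02 and 2.43, and DNAJB1 lies at 0.235.

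**Figure D5:**
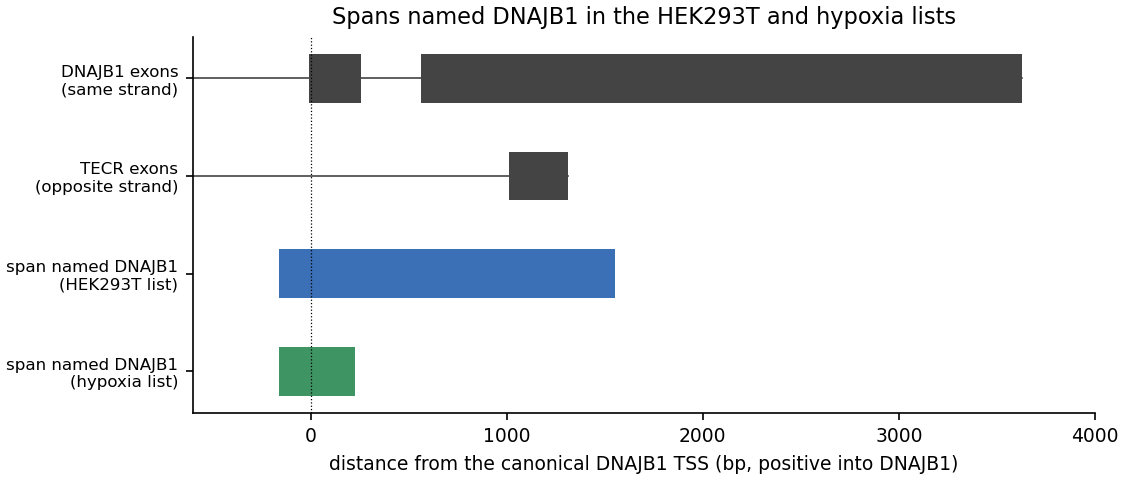
Exons of DNAJB1 and of TECR on the opposite strand (grey) and both spans named DNAJB1 (blue, HEK293T list; green, hypoxia list), by distance in bp from the canonical TSS of DNAJB1. The 2 spans share their upstream end, and 235 bp of the hypoxia span of 387 bp lie over the exon block at the canonical TSS.

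The members named both in the HEK293T list and in a stress list of changed peaks were DNAJB1, DNAJC12, DNAJC21 and HSPD1. Of the 17 members of the HEK293T list, the first 3 (17.6%) are also in the hypoxia list, beside 13.3% of all names of the HEK293T list. They are 3 of the 6 hypoxia members (50%), beside 55.8% of all hypoxia names. With heat shock, HSPD1 alone is shared, 1 of 17 (5.88%) beside 2.48% of all names, and 1 of 2 heat shock members (50%) beside 54.8%. AHSA1, DNAJC2, DNAJC14 and HSPB1 have a stress line and no HEK293T line.

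The genes shared with hypoxia had the same 5′ end in both lists and differed in how far the span ran. DNAJC21 starts on the same base in both lists, and its hypoxia span of 300 bp (chr5:34929664-34929963) ends 3963 bp earlier. DNAJC12 has the same 5′ end in both lists, and its hypoxia span (chr10:69583107-69597937) runs 23 bp further. Hypoxia member spans had a median length of 343.5 bp (239 to 14831 bp), beside 1287 bp over the hypoxia list, and 5 of 6 were at most 1000 bp (83.3%), beside 47.4%. At the nearest TSS, 3 of the 6 hypoxia members have an A (AHSA1, DNAJC12 and DNAJC21). At least 1 annotated A lies within the span of 5 of 6, all but DNAJB1.

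The gene name and the place of a span did not always match. Besides HSPD1, the hypoxia span named DNAJC14 is covered in full, 479 of 479 bp, by exons of the pseudogene TMEM198B on the opposite strand, and 138 bp are DNAJC14 exon. HSP90B1, the HSP90 of the endoplasmic reticulum, is not named in any list. Yet its canonical TSS, an A at position 104324188, and 14 of its 20 annotated TSSs lie in a HEK293T span that is named for the microRNA gene MIR3652 (chr12:104324112-104325396). That span of 1285 bp holds 469 bp of HSP90B1 exon, 147 bp of it coding, and 131 bp of MIR3652. Under the rule used here HSP90B1 stays uncounted. Divergent neighbours within 1000 bp on the opposite strand were found for 4 of 17 HEK293T members (23.5%), against 23.2% of the list: DCDC1 at 30 bp from DNAJC24, HSPE1 at 75 bp from HSPD1, WDCP at 126 bp from FKBP1B and BUD23 at 144 bp from DNAJC30. In the hypoxia list AHSA1 has VIPAS39 at 80 bp and DNAJC2 has PSMC2 at 84 bp. Of these partners PSMC2 alone is named in a list, that of HEK293T cells.

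Heat shock element letters were looked for in the promoters, since heat shock factor binds such elements at inducible chaperones. The naming rule did not use them, and the letters alone do not mark a gene as heat-induced. GAANNTTC and TTCNNGAA, both palindromes and so alike on both strands and able to overlap each other, were searched from 250 bases before to 50 bases after each canonical TSS. They occur in 32 of the 125 chaperone genes (25.6%) and in 2181 of 19868 protein-coding genes (11%). Among the members of the HEK293T list 4 of 17 have them (23.5%), namely BAG2, DNAJB1, DNAJB6 and HSPD1. Among the genes in no list 27 of 104 do (26%). Listed and unlisted chaperones thus had these letters in like shares, which was not tested. Of the 23 chaperones listed as heat-inducible 19 have them (82.6%), HSPB1 and HSPD1 among them, and the others have no heat shock line. HSPA1A and HSPA1L, on opposite strands, are both counted for the same site.

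Of the 8 genes in either stress list, HSPB1, HSPD1 and DNAJB1 have the letters. They are shown as 30 bases on the strand of the gene with the repeat in capitals, and for HSPD1 as 29 bases with 3 repeat units in capitals. Distances are from the canonical TSS. For HSPD1 this is not the TSS marked earlier, which lies further upstream.
HSPB1, 182 bases before the TSS, chr7:75931797-75931826, plus strand: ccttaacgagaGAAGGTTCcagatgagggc
DNAJB1, 77 bases before the TSS, chr19:14629268-14629297, minus strand: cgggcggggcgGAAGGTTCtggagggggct
DNAJB1, 47 bases before the TSS, chr19:14629238-14629267, minus strand: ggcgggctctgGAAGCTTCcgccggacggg
HSPD1, 245 bases before the TSS, chr2:198364789-198364817, minus strand: gcggcattTTCTGGAAAGTTCtggaaccg
HSPD1 has overlapping matches of 2 units at 245, 240 and 235 bases before its canonical TSS, and the last unit stands in lower case above. HSPB1 and HSPD1 were the higher member lines after heat shock. DNAJB1, with the letters at 2 places, was absent from the heat shock list and lower under hypoxia. A match is a description of the reference letters and not a bound site.

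At the canonical TSS, the first base is A in 58 of the 125 chaperone genes (46.4%), beside 50.8% of all protein-coding genes. It is A in 9 of 17 members of the HEK293T list (52.9%) and in 46 of the 104 genes in no list (44.2%). Of the 8 chaperone genes in either stress list, 5 have an A there (62.5%), namely AHSA1, DNAJC12, DNAJC14, DNAJC2 and DNAJC21. The others, HSPB1, HSPD1 and DNAJB1, have none there. The inducible genes HSPA1A, HSPA1B and HSP90AA1 have an A there and no line in any list.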

How the data were processed

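m6Am-seq libraries of HEK293T cells were grouped by their titles. The authors trimmed reads with Trim Galore 0.6.6 (per the submitters' processing notes), aligned them to hg19, called peaks with exomePeak and MACS2, and compared stressed with untreated cells with exomePeak and DESeq2. How replicates were combined is not given in the sources used here. The ratio deposited by the authors for each stress line is headed as log2, yet no value is below 0 and lowered lines lie between 0 and 1. It was therefore read as linear, stressed over untreated, and printed as deposited without a test. These lists carry thresholds, so ratios near 1 are nearly all missing from them. Peak callers that join exons give long outer spans.

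Names were matched to Gencode release 44 on GRCh37, whose protein-coding genes served as background. Coordinates count from 1, because 157 span starts matched an exon's first base and 2 did when shifted by 1. Sequences were read from GRCh37. A divergent neighbour is a protein-coding TSS on the opposite strand within 1000 bp of the TSS nearest the 5′ end of the span. The canonical TSS is that of the transcript tagged so by Gencode. Every line that fits the naming rule was named. Of the genes without a line, those of 3 fixed lists were named (heat-inducible, endoplasmic reticulum, mitochondrial). Whether each gene of the heat-inducible list responds to heat in these cells was not tested. The members and lists were chosen with earlier results of these data known. HSP90B1, MOB4, HSPE1-MOB4, TMEM198B, MIR3652, TECR, TMPO, SLC25A5, TROVE2 and ZIC2 were named after their lines were seen. Reads of HSPD1, PPIA and other genes with processed pseudogenes may be shared with these copies, of which Gencode holds 153 noncoding or pseudogene entries under the naming rule, none listed. Functions for overlap, nearest TSS, covered length, sequence windows and the naming rule were tested on simulated or made-up inputs. The search for heat shock element letters was not among these tests. Alternatives were other name matches, overlap rules, span limits, ratio limits, TSS sets and promoter windows. Python 3.11.15, pandas 2.3.3, SciPy 1.17.1, pyfaidx 0.9.0.4 and Matplotlib 3.10.9 were used. m6Am at single sites, read coverage and CAGE signal were not analysed here. Some sequences are not reported here.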

Additional observations from a re-analysis of the deposited data

How the results depend on the processing

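No paired analysis was possible because the lists hold no values per replicate, and for the same reason no replicate could be left out. Of 25 alternative values over 13 results, 16 stayed within the limits set and 9 moved. With spans of at most 1000 bp, 7 of the 17 HEK293T members were left. Members shared by the HEK293T and hypoxia lists fell from 3 to 1 where 50% of both spans had to overlap (DNAJC12) and to 0 with identical ends, and the 1 shared with heat shock fell to 0 under both rules, since these spans differ in length. At a ratio of at least 3 or at most 1/3, hypoxia kept 0 of 5 higher members and heat shock 1 of 2 (HSPB1), and DNAJB1 remained lower. The median member span of 3818 bp was 409 bp in exons. Heat shock element letters of 3 units in a row, chosen after seeing the data, were in 8 chaperone promoters instead of 32. A further count, also chosen after seeing the data, added genes whose canonical TSS lies in a listed span named outside the naming rule. It gave 18 HEK293T members (with HSP90B1), 3 heat shock members (with HSPE1) and 6 hypoxia members. HSPE1 was not added for the HEK293T list, although its canonical TSS lies in the span named HSPD1. Depth is unknown, so small differences between lists cannot be judged.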
